A study of Mus musculus with 42 samples.

Results

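The 10 genes described here encode the core of the TGF-beta pathway: the ligands Tgfb1, Tgfb2 and Tgfb3, the receptors Tgfbr1 and Tgfbr2, the signalling Smads Smad2, Smad3 and Smad4, and the inhibitory Smads Smad6 and Smad7. They were chosen by name, as every probe of the array whose gene symbol is 1 of these 10, and they are 10 of the 21186 genes that the array names. All 10 were found, by 15 probes. As background, a TGF-beta dimer is secreted in a latent complex and, once released, brings Tgfbr2 and Tgfbr1 together. Tgfbr2 then activates Tgfbr1, which phosphorylates Smad2 and Smad3, and these enter the nucleus with Smad4. Smad7 and Smad6 block this route at the receptors or at Smad4, and Smad7 is itself a target gene of the pathway. In the vessel wall TGF-beta is known for its part in smooth muscle differentiation and matrix deposition, and in skeletal muscle for fibrosis and for holding back growth beside its relative myostatin.

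The RNA came from aorta and skeletal muscle of male mice in 7 groups, with 3 arrays per group and tissue and 42 arrays in all. The mice were 18 to 20 weeks old when they entered the study. The healthy control group (G) consisted of C57BL/6 mice, and the 6 other groups of KK/Ay mice, a strain that becomes obese and diabetic by itself, so groups A and G differ in strain as well as in diabetes. The healthy group and the diabetic group (A) received saline by gavage for 8 weeks. The macroangiopathy group (C) also received saline, but was fed high-fat chow and drank L-NAME, which blocks nitric oxide synthase, for 8 weeks to damage the large vessels. The same chow and L-NAME were given to 4 treated groups: SHENQI (B), treated with a herbal compound by gavage for 8 weeks, yangyinyiqi (D) and huoxue (E), each treated with a component formula of that compound, and rosiglitazone (F), treated with this PPAR-gamma agonist. The arrays were hybridized on 11 slides, most of which hold few of the groups. Whether the aorta and the muscle of a group came from the same animals is not stated in the sources used here.

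All levels below are log2 normalized intensities of a gene, the mean of its probes, and a difference of 1 is a doubling. Levels of different genes cannot be set against each other, since probes differ in brightness. Groups of 3 arrays can separate without any change. Where groups are said below not to overlap, the share of all genes that do so was not counted. Of the 15 probes, 10 were well above background on all 42 arrays and none was saturated. The probe of Smad7 was well above background on 38 arrays, 1 probe of Tgfbr1 on 38, 1 probe of Smad3 on 39, and the 3 probes of Tgfbr2 on 42, 39 and 13. The value of Tgfb3 is missing on rosiglitazone aorta 1, where its only spot was irregular.

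For Tgfb1, Tgfbr1, Tgfbr2 and Smad6, 1 probe each is printed here in the sense of the transcript, from the deposited scanner files. It is the only probe of Tgfb1 and of Smad6. For Tgfbr1 and Tgfbr2 it is not the brightest probe, and the gene value is the mean of all probes. The Tgfb1 probe, present in 10 spots per array, lies at chr7:26489877-26489936 of mm9 on the plus strand. The Tgfbr1 probe spans chr4:47419898-47423556 on the plus strand, which is 3659 bases of genome for 60 bases of probe, so it crosses at least 1 intron. The second of the Tgfbr2 probes lies at chr9:116019196-116019255 and the Smad6 probe at chr9:63801378-63801437, both on the minus strand. Exon and UTR annotation of this build was not used here.
Tgfb1: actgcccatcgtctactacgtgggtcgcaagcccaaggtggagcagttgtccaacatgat
Tgfbr1: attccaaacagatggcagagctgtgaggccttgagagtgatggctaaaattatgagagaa
Tgfbr2: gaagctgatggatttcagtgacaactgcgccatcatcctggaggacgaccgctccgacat
Smad6: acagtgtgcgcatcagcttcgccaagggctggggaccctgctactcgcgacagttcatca

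The labels of the tissues were checked against marker lists. The mean level of 5 skeletal muscle markers was 16.82 to 17.28 on the muscle arrays and 7.67 to 15.86 on the aorta arrays, so some aortas carried much RNA of striated muscle (diabetic aorta 2 at 15.86, rosiglitazone aorta 1 at 14.50, healthy aorta 3 at 13.44). The mean of 5 smooth muscle markers was 9.41 to 10.88 in muscle and 12.39 to 14.63 in 20 of the 21 aortas. Healthy aorta 1 stood apart at 9.66, within the range of muscle, with the highest lymphocyte list (10.01) and macrophage list (10.51) and the lowest fibroblast list (8.73) of all aortas. The smooth muscle markers thus did not bear out its label as aorta, while other lists set it apart from muscle: its skeletal muscle list was 9.86, and its brown adipocyte list 13.08 against at most 9.18 in muscle. The results it touches most are given with and without it. Healthy muscle 3 had the lowest smooth muscle list (9.41) and the highest macrophage list (10.02) of the muscle arrays. The aorta samples also held signal of fat: the adipocyte list had a median of 14.15 in aorta and 10.91 in muscle. The median brown adipocyte list was 13.08 in aorta and 7.33 in muscle. The cardiac muscle list ranged from 6.42 to 12.80 in aorta and from 7.99 to 8.57 in muscle. Differences between the tissues are thus those of the dissected samples, not of the vessel wall alone. In bulk tissue, fewer cells of a type and less RNA per cell cannot be told apart.

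**Figure D1:**
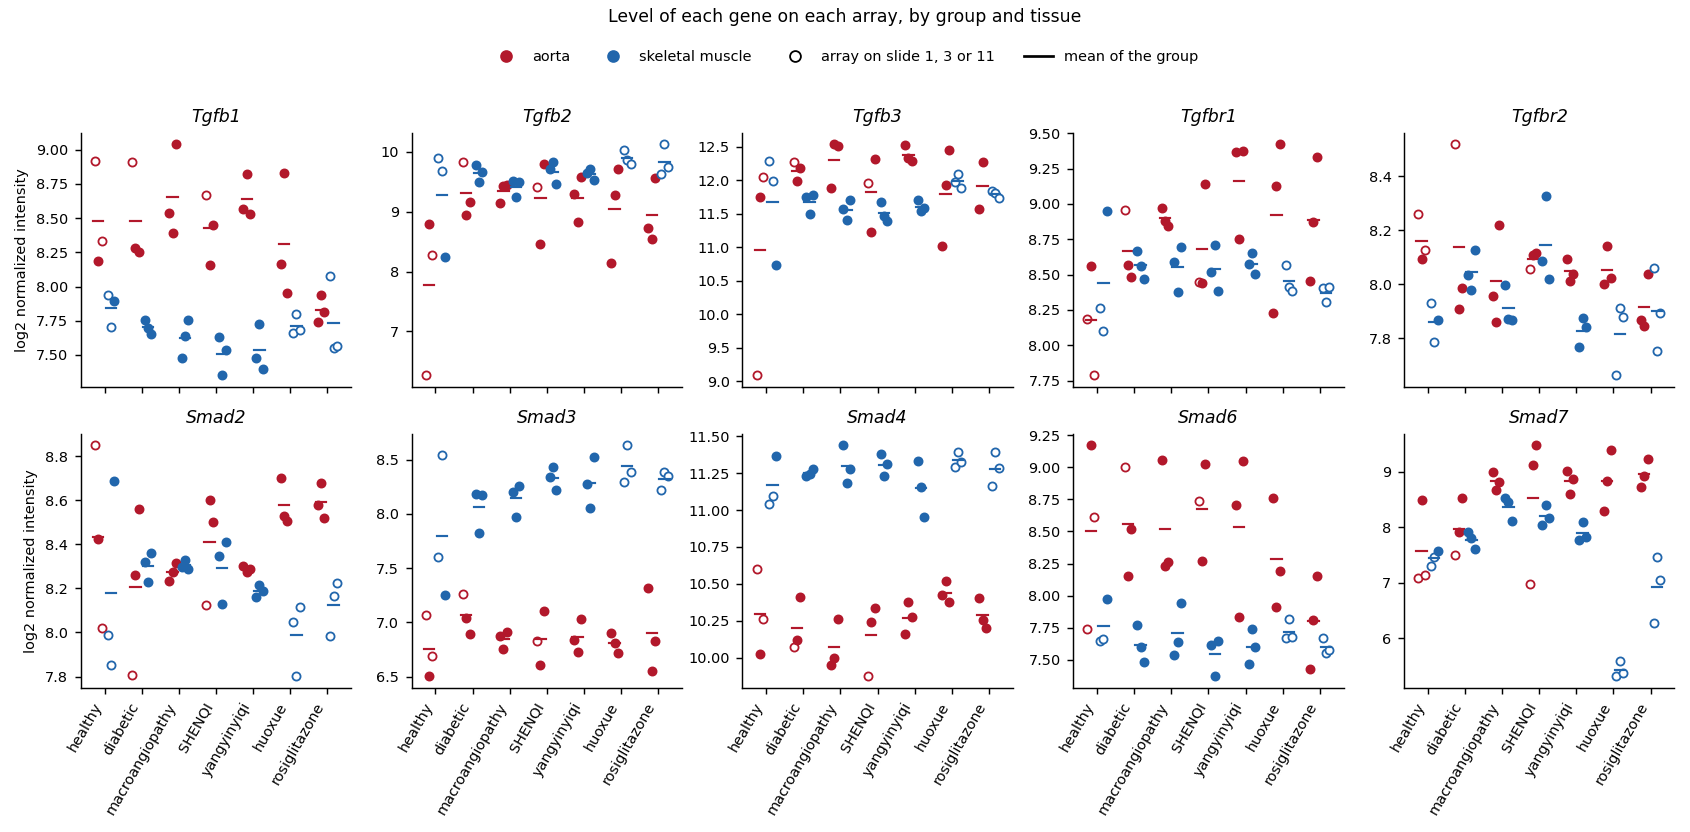
Level of each of the 10 genes on each array (log2 normalized intensity, 1 point per array) in the 7 groups, with aorta in red, skeletal muscle in blue, horizontal bars for group means and open circles for arrays on slides 1, 3 and 11. Smad4 and Smad3 are higher in muscle and Tgfb1 and Smad6 mostly higher in aorta in every group, and the lowest Smad7 values, 5.32 to 5.59, are the huoxue muscles, which all lie on slide 11.

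The first comparison asked how the pathway genes differ between the tissues, over all 42 arrays. Apart from slide 4, with 2 diabetic aortas and 1 healthy muscle, each slide held only 1 tissue. Tissue and slide therefore cannot be told apart for most arrays, with or without a slide block. The signalling Smads Smad3 and Smad4 and the ligand Tgfb2 were lower in aorta, while the inhibitory Smads Smad6 and Smad7, the ligand Tgfb1 and Smad2 were higher there. With limma and Benjamini-Hochberg adjustment over all genes, 9 of the 10 genes were called at an adjusted p below 0.05, where 76.9% of all genes tested were called, so the count itself is no result about these genes. With the slide as a random block 7 were called, without Tgfbr1 and Tgfbr2 (limma adjusted p 0.0599 and 0.0524), and without healthy aorta 1 all 10 were.

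Among the ligands, Tgfb1, the form most widely made by immune and vascular cells, ranged from 7.74 through a median of 8.39 to 9.04 in aorta and from 7.35 through 7.66 to 8.08 in muscle. The ranges overlapped, and the mean difference of 0.74 (SE 0.08, 1.67-fold) was called with limma at an adjusted p of 4.46e-10. Tgfb2, a ligand with a large part in heart and vessel development, was lower in aorta, from 6.27 through 9.17 to 9.83 against 8.25 through 9.69 to 10.13. Its difference was -0.64 (SE 0.17) with a limma adjusted p of 0.00109, and -0.53 without healthy aorta 1, the lowest value of all. With normalization within tissue the difference was -0.34 and no longer called (limma adjusted p 0.0772). Tgfb3, abundant in mesenchymal cells, ranged from 9.09 through 12.12 to 12.54 in aorta and from 10.74 through 11.71 to 12.29 in muscle. It was not called on all arrays (0.22, SE 0.17, limma adjusted p 0.253), and it was called without healthy aorta 1 (0.35, SE 0.12, limma adjusted p 0.00837).

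The receptors differed little as gene means, and their probes did not speak with 1 voice. Tgfbr2, the receptor that binds the ligand first, had a mean difference of 0.13 (SE 0.05, limma adjusted p 0.0106), but with each probe fitted on its own the probe at chr9:115997155-115997214 was 1.04 higher in aorta, the printed probe was 0.10 lower (difference -0.10, SE 0.06, limma adjusted p 0.0992) and the third was 0.54 lower (difference -0.54, SE 0.11). The first of these probes ranged from 11.39 to 12.58 in aorta and from 10.47 to 11.42 in muscle, which barely overlap, and it is the only 1 of the 3 well above background on all arrays. The direction of the gene mean also turned with the scaling, to -0.010 with normalization within tissue, -0.33 with the processed signal and -0.20 in the authors' value table, so no direction is given for Tgfbr2 as a gene. Tgfbr1, the receptor kinase that phosphorylates Smad2 and Smad3, had a difference of 0.27 (SE 0.09, limma adjusted p 0.0105). Its printed probe gave 0.63 (SE 0.12) and its other probe, the brighter, -0.09 (SE 0.10, limma adjusted p 0.409), so here too the direction depends on the probe.

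The Smads gave the clearest separation. Smad4, the partner that all receptor-activated Smads share, ranged from 9.88 through 10.26 to 10.60 in aorta and from 10.95 through 11.28 to 11.44 in muscle, with no overlap among the 42 arrays. The difference was -1.01 (SE 0.05, 2.01-fold lower in aorta, limma adjusted p 7.06e-18), and its probes gave -1.56 and -0.46. Smad3, which carries much of the transcriptional response to TGF-beta, ranged from 6.50 through 6.84 to 7.32 in aorta and from 7.25 through 8.26 to 8.63 in muscle. It was 2.51-fold lower in aorta (difference -1.33, SE 0.08, limma adjusted p 1.27e-15), and its probes gave -1.03 and -1.63. Smad2, the close relative of Smad3, differed the other way by 0.20 (SE 0.07, limma adjusted p 0.00863), with ranges of 7.81 to 8.85 and 7.80 to 8.69 that overlapped almost wholly.

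Over all 42 arrays both inhibitory Smads were higher in aorta. Smad6, which mainly restrains BMP signals, ranged from 7.43 through 8.27 to 9.17 in aorta and from 7.37 through 7.64 to 7.98 in muscle, a difference of 0.76 (SE 0.11, limma adjusted p 3.27e-07). Smad7, the inhibitor at the TGF-beta receptor, ranged from 6.98 through 8.72 to 9.48 in aorta and from 5.32 through 7.77 to 8.53 in muscle. Its difference of 1.07 (SE 0.15, limma adjusted p 2.16e-07) was unevenly spread over the groups. It was between 0.12 and 0.94 in 5 groups and called in none of them (limma adjusted p 0.0601 to 0.856). In rosiglitazone it was 2.03 as fitted, with muscle 1 not well above background. In huoxue, where the probe was not well above background on any muscle array, Smad7 was at least 7.24-fold higher in aorta, a log2 difference of at least 2.86. For Smad3 the group values lay between -1.63 and -0.99, and for Smad4 between -1.23 and -0.87, so these held in each of the 7 groups. Tgfb1 lay between 0.60 and 1.11 in 6 groups and at 0.10 in rosiglitazone.

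**Figure D2:**
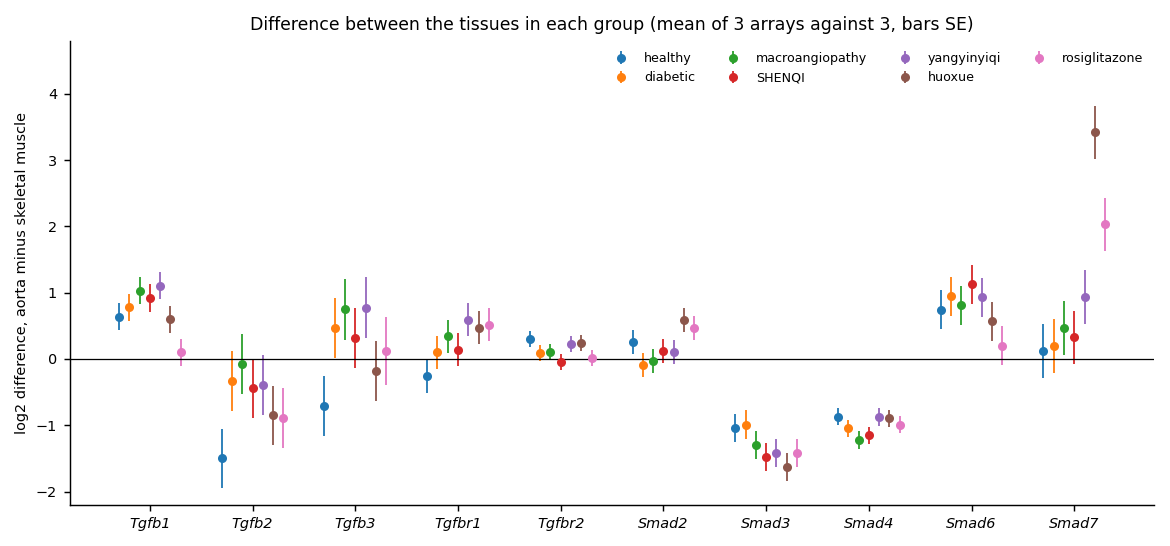
Difference between the tissues (log2, aorta minus skeletal muscle) for each gene in each of the 7 groups; points are means of 3 arrays against 3 and bars are standard errors from the fit of 42 arrays. Smad3 and Smad4 lie below 0 in all groups, Smad6 and Tgfb1 above 0 (least in rosiglitazone, 0.20 and 0.10), and Smad7 reaches 2.03 in rosiglitazone and more in huoxue, whose point rests on muscle values not well above background.

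The other genes of the pathway, in lists chosen with earlier results known, are described beside the 76.9% of all genes called between the tissues. The 65 genes of the lists that were called stayed called without healthy aorta 1, and none moved by more than 0.19. Of 14 genes of latency and activation, 9 were higher in aorta and 3 lower, led by the latent TGF-beta binding proteins Ltbp2 (4.03, SE 0.16), Ltbp4 (1.76, SE 0.21) and Ltbp1 (1.73, SE 0.14) and, lower in aorta, by Itgb6 (-3.22, SE 0.11), a chain of an integrin that releases active TGF-beta, the matrix proteoglycan Fmod (-2.66, SE 0.20) and Thbs1 (-0.48, SE 0.07). Of 13 co-receptors and related receptors, 4 were higher and 6 lower, with Acvr1c at 2.05, Eng, a co-receptor of endothelium, at 0.79 and Bambi, a decoy receptor, at 0.43, against Amhr2 at -4.66, Acvr2b, a receptor of myostatin, at -1.41 and Acvr1b at -1.20. Of 18 other Smads and regulators, 7 were called in each direction. Pmepa1 (2.21), Skil (1.26) and Ski (0.88), which all restrain Smad signals, were the largest of those higher in aorta, and the ubiquitin ligase Wwp1 (-1.63), Tob1 (-1.52) and Zfyve9 (-1.01) the largest of those lower. Myostatin itself (Mstn), made by skeletal muscle, was -5.17 in aorta, Nodal -1.30 and Gdf11 -0.97, while Inhba was 2.13, Fstl1 1.97 and Fstl3 0.85, among 4 higher and 5 lower of 10 genes of that list. Of 22 target genes of TGF-beta, 14 were higher and 6 lower in aorta. The largest were Cnn1 (5.62), Tagln (4.15) and Acta2 (2.43), which are also smooth muscle markers, and those lowest in aorta were Bhlhe40 (-1.23), Klf10 (-0.91) and Loxl2 (-0.61). The median difference was 1.12 for the target genes, 0.58 for latency and activation and 0.03 for all genes tested.

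The comparison of the diabetic with the healthy group asked what differs in KK/Ay mice that were not given the high-fat chow and L-NAME. No gene of the 10 was called by limma with Benjamini-Hochberg adjustment, in both tissues together (4.5% of all genes called), in aorta (0.213%) or in muscle (4.28%). None had an unadjusted p below 0.05 either, where 22.1%, 11.7% and 22.2% of all genes did. The largest difference was that of Tgfb2 in aorta. Its levels were 9.83, 8.95 and 9.17 in diabetic aorta and 6.27, 8.80 and 8.27 in healthy aorta, which do not overlap. The difference of 1.54 (SE 0.66, limma adjusted p 0.430) fell to 0.78 (SE 0.32, limma adjusted p 0.340) without healthy aorta 1. The fit of all 42 arrays with 14 group means, which borrows the spread of the other groups, did call Tgfb2 in aorta. Tgfb3 followed the same arrays, with 12.27, 11.98 and 12.19 in diabetic and 9.09, 11.75 and 12.05 in healthy aorta, and a difference of 1.18 (SE 0.75) that became 0.25 (SE 0.19) without healthy aorta 1. The results in muscle depended on healthy muscle 3. Without it, Smad2 (0.38), Tgfbr1 (0.39), Tgfb3 (-0.46) and Smad7 (0.40) had unadjusted p values below 0.05 there. None of these was called (limma adjusted p 0.0855 to 0.123), and the share of all genes was not counted. Tgfb2 in muscle was then -0.14, while the means of all arrays were 9.65 in diabetic and 9.28 in healthy muscle.

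In the other lists, 4 genes were called in both tissues together, where 4.5% of all genes were. The inhibin alpha chain Inha (0.65, SE 0.16) and Lefty1 (0.65, SE 0.17) were higher in the diabetic group, and Lox (-1.16, SE 0.21), which crosslinks collagen and elastin, and Cdkn1a (-3.03, SE 0.32), a cell cycle inhibitor that TGF-beta induces, were lower. In that fit no gene was called among those of latency and activation, the co-receptors and the other Smads and regulators. Without healthy aorta 1, Lox (-1.33) and Cdkn1a (-3.03) stayed called, and Inha (0.59, limma adjusted p 0.0555) and Lefty1 (0.63, limma adjusted p 0.0652) did not, while Cdkn2b (0.73, limma adjusted p 0.0341) and Inhba (0.88, limma adjusted p 0.0443) were then called.

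Diet and L-NAME were addressed by the macroangiopathy group against the diabetic group, of the same strain. No gene of the 10 was called in both tissues together (0% of all genes called), in aorta (0%) or in muscle (0.0146%). Smad7 had the only unadjusted p below 0.05, in each of these fits, where 5.14%, 3.81% and 7.28% of all genes had one. It was 9.01, 8.67 and 8.82 in macroangiopathy aorta and 7.50, 7.92 and 8.53 in diabetic aorta, and 8.53, 8.46 and 8.11 in macroangiopathy muscle and 7.92, 7.81 and 7.61 in diabetic muscle. The groups did not overlap in either tissue. The difference in both tissues was 0.72 (SE 0.16, 1.65-fold, limma unadjusted p 0.000717, adjusted 0.498). In muscle, where the slide could be fitted as a block, the difference was 0.59 without and 0.46 with it. No slide holds muscles of both groups, so the value with the block is indirect, linked through SHENQI muscles on slides 5 and 7. In aorta it was 0.85 (SE 0.27), and 0.47 with slides 1, 3 and 11 as a batch term. Diabetic aorta 1, the lowest of these aortas at 7.50, lies on slide 1. The 9 other genes differed by at most 0.13 in either direction in both tissues together. None of the genes in the other lists was called.

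The macroangiopathy group was also set against the healthy group, and the comparison shares its arrays with the previous ones. Smad7 was called in both tissues together, 1 of the 10 genes where 5.2% of all genes were called and 24.3% had an unadjusted p below 0.05. Against the values above, healthy aorta had 7.09, 8.49 and 7.14 and healthy muscle 7.31, 7.47 and 7.58, below every macroangiopathy array of the same tissue. The difference was 1.09 (SE 0.22, 2.12-fold, limma adjusted p 0.0203) and was called without healthy aorta 1 (0.96, limma adjusted p 0.0254). It was not called without macroangiopathy aorta 2, macroangiopathy aorta 3 or macroangiopathy muscle 1 (limma adjusted p 0.0504, 0.0503 and 0.0531). In muscle alone it was 0.92 (SE 0.16, limma adjusted p 0.0357, 3.35% of all genes called and 21.9% at an unadjusted p below 0.05), and in aorta alone 1.26 (SE 0.40, limma adjusted p 0.199, 0.259% called and 18.6% unadjusted), or 1.02 (SE 0.40, limma adjusted p 0.217) without healthy aorta 1. The call in muscle was lost without healthy muscle 1 or any 1 of the macroangiopathy muscles. This call moves with the slides: healthy aorta 1 and 3 lie on slide 1 and healthy muscle 1 and 2 on slide 3, where no macroangiopathy array lies. With slides 1, 3 and 11 as a batch term the difference was 0.32 (limma adjusted p 0.449), and without the arrays of slides 1 and 3 it was 0.56 (limma adjusted p 0.0978), and Tgfb2 was then the only 1 of the 10 genes called.

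Tgfb2 and Tgfbr1 had unadjusted p values below 0.05 in the aorta of this comparison, without a call. Tgfb2 was 9.14, 9.43 and 9.45 in macroangiopathy aorta against the healthy values given above, a difference of 1.56 (SE 0.64) that was 0.81 without healthy aorta 1 (limma adjusted p 0.267 and 0.115). Tgfbr1 was 8.97, 8.88 and 8.84 against 8.18, 8.56 and 7.79, a difference of 0.72 (SE 0.22, limma adjusted p 0.192) that was also 0.72 without that array. Without healthy muscle 3, Tgfbr1 was called in both tissues together (0.57, SE 0.15, limma adjusted p 0.0483). Among the other lists in both tissues together, Itgb6 (0.75, SE 0.19), the BMP receptor Bmpr1b (0.75, SE 0.17), the activin chain Inhba (1.40, SE 0.31) and Inha (0.71, SE 0.13) were higher than in healthy mice, and Lox (-0.96, SE 0.20) and Cdkn1a (-2.83, SE 0.33) were lower. Without healthy aorta 1 these were 0.77, 0.61, 1.12, 0.64, -1.14 and -2.85 in the same order, and of these only Itgb6 was no longer called (limma adjusted p 0.0526), while Ltbp1 (0.76, limma adjusted p 0.0462) then was.

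**Figure D3:**
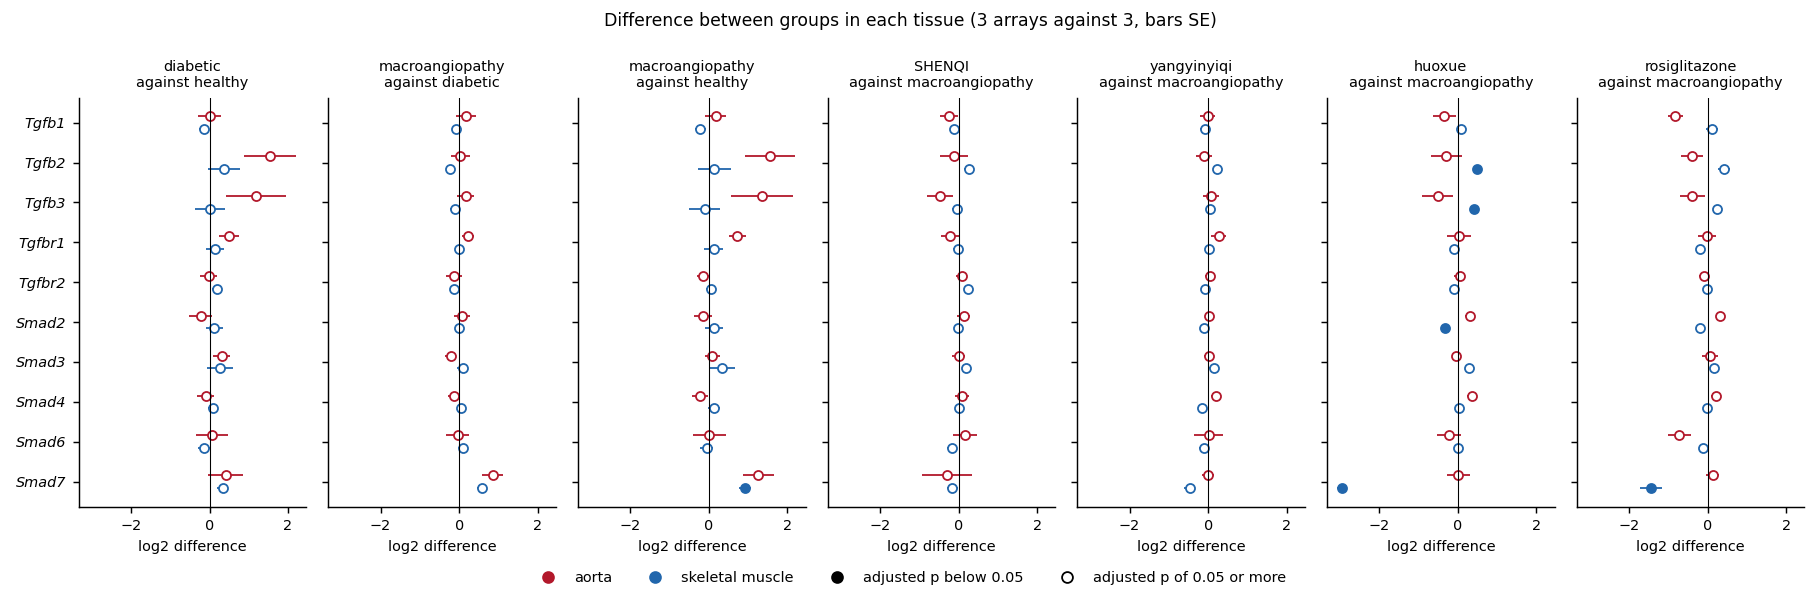
Difference of each gene in the 7 comparisons of groups (log2, first group minus second; 3 arrays against 3 in each tissue; bars are standard errors), with filled points for an adjusted p below 0.05 by limma. Filled points stand only in muscle: Smad7 in macroangiopathy against healthy (0.92), Smad7, Smad2, Tgfb2 and Tgfb3 in huoxue against macroangiopathy, and Smad7 in rosiglitazone against macroangiopathy (-1.44).

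The macroangiopathy group served as the control for all 4 treatments, so these comparisons share its arrays. With SHENQI compound, none of the 10 genes was called, where 0% of all genes were called in both tissues together and in each tissue, and none had an unadjusted p below 0.05 (2.72% of all genes in both tissues, 1.63% in aorta and 2.93% in muscle). In both tissues together the differences lay between -0.26 (Tgfb3) and 0.16 (Tgfbr2). The Smad7 values of SHENQI aorta were 6.98, 9.13 and 9.48, and the low 1 lies on slide 1 beside healthy aortas at 7.09 and 7.14. With yangyinyiqi, again none was called (0% of all genes in each fit), and the differences in both tissues together lay between -0.23 (Smad7) and 0.14 (Tgfbr1). Unadjusted p values below 0.05 were held by 3.42% of all genes in both tissues, 1.4% in aorta and 3.82% in muscle. Of the 10 only Smad7 in muscle had one, with 7.77, 8.10 and 7.82 against 8.53, 8.46 and 8.11, a difference of -0.47 (SE 0.14, limma unadjusted p 0.00837, adjusted 0.992). With the slide as a block it was -0.21, a value that rests on macroangiopathy muscle 3, the only macroangiopathy array on slide 8 with the yangyinyiqi muscles. None of the genes in the other lists was called with either treatment.

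With huoxue, the muscle arrays differed widely from those of the macroangiopathy group. The 3 huoxue muscles and rosiglitazone muscle 1, the arrays of slide 11, had the fewest probes well above background of all 42 arrays, 20200 to 21549. The skeletal muscle list was 16.84 to 16.98 in huoxue muscle and 17.23 to 17.26 in macroangiopathy muscle. The part of these in the differences was not tested. In muscle 32.3% of all genes were called, and 4 of the 10 genes; at an unadjusted p below 0.05 these were 45.6% and 5. Smad7 was 5.32, 5.59 and 5.37 against 8.53, 8.46 and 8.11, and it was not well above background on any huoxue muscle array. Measured against the dimmest signals that pass on those arrays, it was at least 5.21-fold lower, a bound that was not tested. The limma adjusted p of 3.97e-05 belongs to the fit of the values as measured. Smad7 entered that fit only through the macroangiopathy muscles, where it passed on all 3 arrays. A filter that asks for every array to pass leaves it out. Tgfb2 was 10.03, 9.86 and 9.79 against 9.51, 9.24 and 9.49, higher by 0.48 (SE 0.10, limma adjusted p 0.0131). Tgfb3 was 11.97, 12.09 and 11.89 against 11.57, 11.40 and 11.71, higher by 0.42 (SE 0.10, limma adjusted p 0.0184). Smad2 was 8.05, 7.80 and 8.12 against 8.30, 8.33 and 8.29, a difference of -0.32 (SE 0.10, limma adjusted p 0.0403). For none of these genes did the groups overlap, which was not set against the share of all genes. Smad3 (8.30 to 8.63 against 7.97 to 8.26) had an unadjusted p below 0.05 without a call. Smad7 and Tgfb2 were called with each of the 6 arrays left out, while Tgfb3 was lost without macroangiopathy muscle 1 or huoxue muscle 2, and Smad2 was kept only without huoxue muscle 3.

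In aorta 0% of all genes were called with huoxue, and none of the 10. Smad2 (difference 0.30, SE 0.11) and Smad4 (0.37, SE 0.13) had unadjusted p values below 0.05 there, as did 2.07% of all genes, and both lay above every macroangiopathy aorta. Smad7 in huoxue aorta was 8.30, 8.84 and 9.39, around the macroangiopathy values of 8.67 to 9.01 (difference 0.01, SE 0.29). The difference between the tissues, tested as an interaction, was -2.95 for Smad7 as fitted (SE 0.33, limma adjusted p 0.00211), or at least 2.39 in size with the huoxue muscles at their bound, and -0.62 for Smad2 (SE 0.14, limma adjusted p 0.0464), 2 of the 10 genes where 3.05% of all genes were called. In both tissues together 0% of all genes and none of the 10 were called, and 14.3% had an unadjusted p below 0.05. Smad7 was -1.46 (SE 0.46) and Smad4 0.20 (SE 0.09) there, with unadjusted p values of 0.00824 and 0.0477 by limma.

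All 3 huoxue muscles lie on slide 11 and no macroangiopathy array does, so slide and treatment cannot be told apart in this comparison. The fourth array of slide 11 is rosiglitazone muscle 1, whose Smad7 was 6.28, below every muscle array of the other slides. Smad7 was not well above background on that array either, so no difference within the slide is given. The muscle arrays on slide 3, from 2 healthy and 2 rosiglitazone mice, were also low at 7.05 to 7.47, while the 13 muscle arrays outside slides 3 and 11 lay between 7.58 and 8.53. In aorta the 4 arrays of slide 1, from 3 groups, lay between 6.98 and 7.50 and the 17 others between 7.92 and 9.48. With slides 1, 3 and 11 as a batch term, Smad7 in huoxue muscle was fitted at -1.78 (limma adjusted p 0.0340), and Smad2, Tgfb2 and Tgfb3 were no longer called (0.13, 0.21 and 0.27). These slides share a single term. Its size comes from groups with arrays on slide 1 or 3 and also on slides outside the term. No group has arrays both on slide 11 and outside the term, so an effect of slide 11 by itself was not tested.

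**Figure D4:**
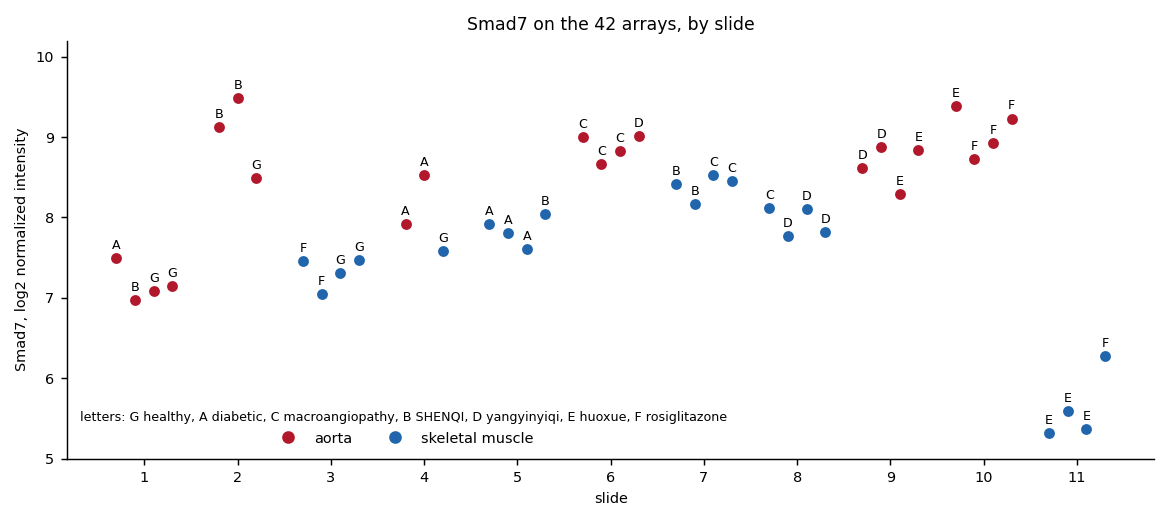
Level of Smad7 (log2 normalized intensity) on each of the 42 arrays by slide, with aorta in red, skeletal muscle in blue and letters for the groups. The aortas of slide 1 (6.98 to 7.50) and the muscles of slides 3 (7.05 to 7.47) and 11 (5.32 to 6.28) lie below all other arrays of their tissue, whatever their group.

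With rosiglitazone, Smad7 was the only 1 of the 10 called in muscle, where 9.89% of all genes were called and 29.8% had an unadjusted p below 0.05. It was 6.28, 7.46 and 7.05 against 8.53, 8.46 and 8.11, a fitted difference of -1.44 (SE 0.28, limma adjusted p 0.0254). On rosiglitazone muscle 1, at 6.28, Smad7 was not well above background, so the size of this difference is uncertain. The call was lost without any 1 of the macroangiopathy muscles or without rosiglitazone muscle 3. The 3 rosiglitazone muscles lie on slides 11 and 3, where no macroangiopathy array lies. The 2 on slide 3 averaged 7.26 beside 7.39 in the 2 healthy muscles there. Those healthy mice are of another strain and had neither the chow nor L-NAME. The part of slide, strain, diet and drug was not tested. Without the array of slide 11 the difference was -1.11 (limma adjusted p 0.0228), and with slides 1, 3 and 11 as a batch term it was -0.28 and no longer called. All 3 rosiglitazone muscles fall inside that term, whose size comes from other groups, split by slides 1 and 3. Tgfb2 (9.63, 10.13 and 9.74) and Tgfb3 (11.85, 11.81 and 11.74) lay above all macroangiopathy muscles, by 0.42 (SE 0.15) and 0.24 (SE 0.10), with limma adjusted p values of 0.109 and 0.157.

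In rosiglitazone aorta 0% of all genes were called and none of the 10 (7.15% and 3 at an unadjusted p below 0.05). Tgfb1 was 7.74, 7.94 and 7.82, the lowest 3 of the 21 aortas, against 8.54, 8.39 and 9.04 in the macroangiopathy group. The share of all genes that separate in this way was not counted. The difference was -0.82 (SE 0.19, 1.77-fold lower, limma unadjusted p 0.00467, adjusted 0.694). The next lowest aorta, huoxue 3 at 7.95, lies on slide 10 with all 3 rosiglitazone aortas, and with the slide as a block the difference was -0.39. No slide holds aortas of both groups, so the values with the block are indirect, linked through huoxue and yangyinyiqi aortas. Smad6 was 7.43, 7.81 and 8.15 against 9.06, 8.23 and 8.26 (difference -0.72, SE 0.29, limma adjusted p 0.695), and -0.31 with the slide as a block. Smad2 was 8.58, 8.68 and 8.52 against 8.24, 8.28 and 8.31 (difference 0.32, SE 0.09, limma adjusted p 0.694), and 0.45 with the block. The Tgfb1 interaction, 0.93 (SE 0.26), had an unadjusted p of 0.00496 and an adjusted p of 0.110 by limma, and none of the 10 interactions was called (1.52% of all genes called). In both tissues together none of the 10 was called (0.00631% of all genes, and 12% at an unadjusted p below 0.05), with Smad7 at -0.65 (SE 0.29) and Smad6 at -0.41 (SE 0.18), both with a limma adjusted p of 0.400.

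Outside the 10 genes, no gene of the 5 lists was called with any of the 4 treatments in both tissues together. In huoxue muscle 10 of 73 genes tested in the lists were called, which is 13.7% beside the 32.3% of all genes. There 3 genes of the lists of latency, activins and targets were higher, namely Ltbp3 (0.42, SE 0.08), Inhbb (0.36, SE 0.11) and Nox4 (0.22, SE 0.07). In the same lists Fstl1 (-1.46, SE 0.28), Fst (-0.91, SE 0.12) and Pdgfb (-0.60, SE 0.12) were lower. Of the 17 other Smads and regulators tested there, Ppm1a (0.37, SE 0.09) was higher, and Skil (-0.88, SE 0.10), Tob1 (-0.54, SE 0.13) and Foxh1 (-0.41, SE 0.11) were lower. In rosiglitazone muscle Fstl1 (-0.95, SE 0.08) was lower, as were Fstl3 (-0.56, SE 0.10) and Fst (-0.43, SE 0.10), follistatins that bind activins. No other gene of the lists was called there, so 3 of 75 tested were, or 4.0% beside the 9.89% of all genes. These genes of single tissues were chosen after their values were seen, and they share the slides named above.

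The 10 genes also varied together or apart across the arrays. Over 42 arrays, after subtracting the mean of each tissue, the genes nearest to Tgfb2 among 11301 genes were Lmod1 (r = 0.93), an actin nucleator of smooth muscle, and Islr (r = 0.93). Nearest to Tgfb3, over 41 arrays, were Ltbp4 (r = 0.92) and Myl9 (r = 0.91), a myosin light chain of smooth muscle. Nearest to Smad7 were Zfp930 (r = 0.95) and Prpf4b (r = 0.92), to Smad2 Gtf2a2 (r = 0.85) and Uchl5 (r = 0.83), and to Tgfbr1 Fgl2 (r = 0.85) and 1810055G02Rik (r = 0.82). Tgfb1 was nearest to Ehmt2 (r = 0.81) and 1500002O20Rik (r = 0.81), Smad6 to P2rx5 (r = 0.83) and Akt2 (r = 0.81), and Smad3 to Krba1 (r = 0.79) and Smox (r = 0.77). Smad4 (Fnbp4, r = 0.68, and Dhx15, r = 0.66) and Tgfbr2 (Ncoa6, r = 0.56, and Thrap3, r = 0.54) had no close neighbour. These arrays share slides and groups, and the values are descriptions.

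Tgfb2, Tgfb3 and the smooth muscle list were set against each other after their values had been seen, so the 6 relations are descriptions. Over 21 aortas Tgfb2 and the list had r = 0.96 and rho = 0.88, and r = 0.87 without the 2 aortas farthest from the median of the list. Over 20 aortas Tgfb3 and the list had r = 0.93 and rho = 0.79, and r = 0.73 without those farthest. Tgfb2 and Tgfb3 had r = 0.92 and rho = 0.72 in aorta, and r = 0.67 without the farthest. In the 21 muscles they had r = 0.83 and rho = 0.69, and r = 0.62 without the farthest. In muscle the relation with the list rested on 2 arrays, since r went from 0.54 to -0.35 for Tgfb2 and from 0.65 to -0.01 for Tgfb3 without them, with rho = 0.09 and 0.34 over all. A slide holds at most 4 arrays, too few for values within slides. The part of tissue composition in the differences of Tgfb2 and Tgfb3 between groups was not tested.

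**Figure D5:**
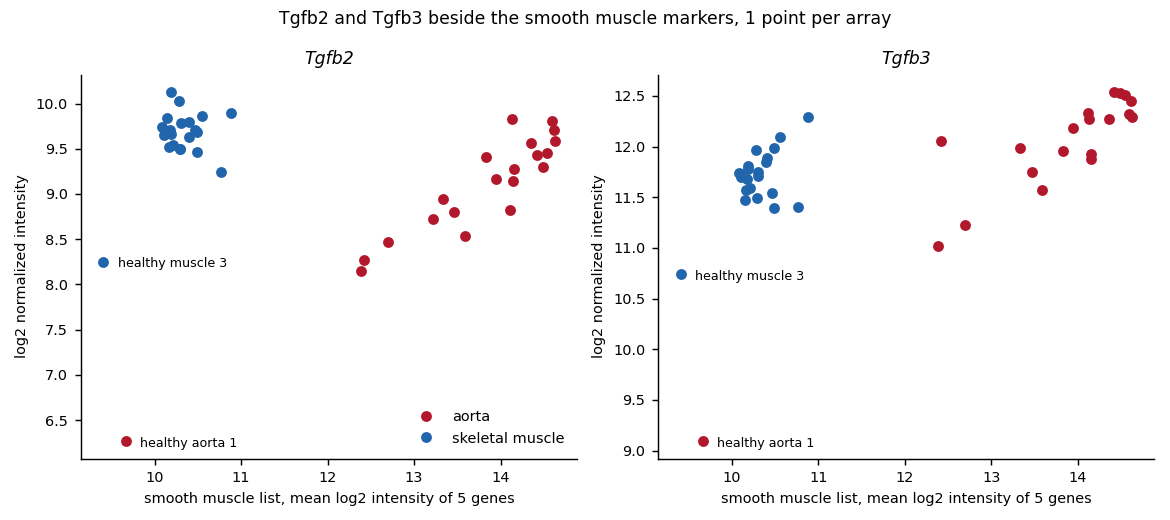
Levels of Tgfb2 and Tgfb3 (log2 normalized intensity) against the mean log2 level of 5 smooth muscle markers, 1 point per array, with aorta in red and skeletal muscle in blue. In aorta both ligands rise with the markers, and healthy aorta 1 lies lowest of the aortas in all 3 measures (6.27, 9.09 and 9.66).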

How the data were processed

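The authors hybridized RNA of 42 samples, each in 1 colour, to Agilent mouse arrays annotated on mm9, and the deposited files give the intensity of 45018 spots per array (1639 controls) as read by Agilent Feature Extraction 10.7, per the labels. A deposited table of the authors' log2 values served as an alternative. Median intensities were corrected with normexp (offset 0), control spots left out, quantile normalized and put on the log2 scale, irregular spots masked, and probes averaged per gene symbol. Between 20200 and 30274 of 41174 probes were well above background per array, and the number of arrays limits precision. Genes entered a test if at least 1 probe passed the scanner's background mark on all 3 arrays of a group and tissue compared. Fits used limma 3.58.1 in R 4.3.3, with tissue as a term for both tissues together, and Benjamini-Hochberg adjustment over all genes tested; the study's threshold was an unadjusted p below 0.05. The fits were tested on simulated data. Groups and replicate numbers came from the labels. The 10 genes were fixed by name. From each further list, up to 3 genes with the largest increase and 3 with the largest decrease among those called in both tissues together, or between tissues, were named, and for each member the 2 genes that follow it most closely. Members and lists were chosen with earlier results of these data known. Deviations of same-numbered samples from their group means correlated between -0.50 and 0.60 across groups of a tissue, above 0.1 for all 3 pairs in no comparison, so replicate numbers were not taken to pair groups. Between the aorta and muscle array of a number the correlation lay between -0.36 and 0.18 (above 0.1 in 3 of 21 pairs), and both arrays were fitted as independent samples. The alternatives were a larger normexp offset, normalization within tissue, the processed signal, the authors' values, other filters, the brightest probe, trended eBayes, no tissue term, a fit of 42 arrays, slide blocks, a replicate block and each array left out. The fits per probe, without the arrays of slides 1 and 3 and without slide 11 were added after seeing the data, as were the list genes without healthy aorta 1 and the bounds for Smad7.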

Additional observations from a re-analysis of the deposited data

Results flagged for a closer look

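The tissues differed in their response for 2 of the 10 genes in huoxue against macroangiopathy, by an interaction test in limma with Benjamini-Hochberg adjustment. For Smad7 the fitted interaction, muscle minus aorta, was -2.95 on the log2 scale (adjusted p 0.00211). The probe was not well above background on any huoxue muscle array, and with those arrays at their bound the interaction was at least 2.39 in size. The fitted interaction stayed called in each of the 12 fits that leave out 1 array. For Smad2 the interaction was -0.62 (adjusted p 0.0464), and it was lost in each of those 12 fits, with adjusted p values from 0.0501 to 0.119. All 3 huoxue muscle arrays lie on slide 11 without a macroangiopathy array, so slide and treatment cannot be told apart.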

How the results depend on the processing

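The tissue comparison gave 9 called genes with any 1 array left out except healthy aorta 1, without which it gave 10; it gave 7 with the slide as a random block (without Tgfbr1 and Tgfbr2) and with normalization within tissue (without Tgfb2 and Tgfbr2), and 8 or 9 in the other settings, and the directions of Tgfb1, Tgfb2, Smad2, Smad3, Smad4, Smad6 and Smad7 in that comparison held in every alternative run that tested them. Tgfbr2 turned to -0.010 with normalization within tissue, to -0.33 with the processed signal and to -0.20 in the authors' value table, and Tgfbr1 to -0.087 with its brightest probe. With slides 1, 3 and 11 as a batch term, Smad2 and Smad3 in huoxue muscle turned to 0.13 and -0.070, and without the arrays of slides 1 and 3 Tgfbr1 in macroangiopathy against healthy mice turned to -0.028.

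Counts of called genes moved by more than 1.5 times as follows. In diabetic against healthy mice, 0 became 1 (Tgfb2) in both tissues together and in aorta, in the fit of 42 arrays and with the slide as a random block, and 2 and 1 with the batch term. In macroangiopathy against healthy mice, both tissues together went from 1 to 0 with the batch term and ranged from 0 to 2 with 1 array left out. In aorta, 0 became 4 in the fit of 42 arrays, 1 with the random block and 1 with the batch term, and ranged from 0 to 1 (Smad7, without healthy aorta 2) with 1 array left out. In muscle, 1 became 0 without a filter, with the replicate block, in the fit of 42 arrays, with the random block and with the batch term, and ranged from 0 to 1 with 1 array left out. In huoxue against macroangiopathy, both tissues together went from 0 to 1 (Smad7) in the fit of 42 arrays. In muscle, 4 became 2 with the replicate block and 1 (Smad7) in the fit of 42 arrays, with the random block and with the batch term, and ranged from 2 to 4 with 1 array left out and from 1 to 5 over the other settings (5 with the brightest probe, which adds Smad3; Tgfb3 lost in the authors' values, Smad2 without a filter). The interaction count went from 2 to 1 with any 1 array left out. In rosiglitazone muscle, 1 became 2 with the brightest probe (Smad3 and Smad7) and 0 without a filter, with the stricter filter, which drops Smad7, with the replicate block, in the fit of 42 arrays, with the random block and with the batch term, and ranged from 0 to 1 with 1 array left out; the interaction count ranged from 0 to 1 (Tgfb2 without rosiglitazone aorta 3, Smad7 without rosiglitazone muscle 2). The replicate block changed no other count, and replicate numbers were not taken to pair these samples.

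Arrays that decide a call were macroangiopathy aorta 2 and 3 and muscle 1 for Smad7 in macroangiopathy against healthy mice (adjusted p by limma 0.0504, 0.0503 and 0.0531 without them), and, in the same way, each macroangiopathy muscle for Smad7 in rosiglitazone muscle (0.0967, 0.0719 and 0.0632) and rosiglitazone muscle 3 (0.0651). The causes were not tested.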
